A study of Homo sapiens with 12 samples.

Results

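hnRNPK ChIP-seq peaks that lay at the starts of long noncoding RNA (lncRNA) genes were examined in HCT116, a human cell line established from a colorectal carcinoma. A peak was placed at a lncRNA start when its midpoint lay within 1 kb of the 5′ end of a lncRNA gene record in GENCODE release 44 and not within 1 kb of the 5′ end of any protein-coding gene record. Of the 16214 peaks on chromosomes 1 to 22, X and Y in 6 peak lists, 321 met this rule, 1018 lay at a protein-coding start and 14614 lay at no gene start. A further 198 peaks near a lncRNA start were left out because a protein-coding start was also within 1 kb, as happens at shared bidirectional promoters.

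Chromatin immunoprecipitation was done with an antibody against hnRNPK, and each list holds the peaks of 1 immunoprecipitated library against its own input library. The cells formed 3 groups with 2 lists each. They carried a construct expressing the lncRNA CRLM1, which is the product of LINC01767 (CRLM1-OE), no insert (empty control) or an antisense sequence (antisense control). Per the study's text, the ChIP-seq cells overexpressed hnRNPK both with CRLM1-OE and in the control condition, so these lists do not show the protein at its natural level. That text does not name the antisense control separately. The construct held a CRLM1 cDNA and acted from outside the gene's own locus.

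lncRNAs are transcripts without a long open reading frame, and many start in antisense orientation inside protein-coding genes or from the opposite strand of their promoters. Others are hosts whose introns are processed into small nucleolar RNAs or microRNAs. hnRNPK is an RNA- and DNA-binding protein that recognises C-rich single strands through its KH domains. It is found both on nascent transcripts and at promoters, and with lncRNAs it has been studied as a partner in transcriptional control.

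The 6 lists held 1619 to 4339 peaks, and the number of reads behind each is unknown. No peak scored under 50, and the median score of a list was between 55.7 and 57.6, so most peaks were near the calling threshold. Median peak width split the lists across the groups, at 506 and 516 bp in CRLM1-OE replicate 1 and empty control replicate 2 against 662 to 747 bp in the other 4 lists. Peak intervals carry no expression or genotype, so the cell line named in the labels could not be checked with them.

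The sequences at the centres of 7 of these peaks are printed from the hg38 assembly on the strand of the lncRNA, 150 bases each. They show the gene of the overexpressed lncRNA, the 5 lncRNA starts called in the most lists, and SNHG25, which was chosen after its values were seen because it was called with CRLM1-OE in both replicates and in no control list. Capitals mark runs of 4 or more C or G and any match to CCCTCCC or its reverse complement GGGAGGG.
LINC01767 (chr1:56414952-56415101, plus strand): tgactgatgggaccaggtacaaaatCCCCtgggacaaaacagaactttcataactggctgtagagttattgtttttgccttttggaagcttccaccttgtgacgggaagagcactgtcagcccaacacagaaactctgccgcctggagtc
SNHG25 (chr17:64146839-64146988, plus strand): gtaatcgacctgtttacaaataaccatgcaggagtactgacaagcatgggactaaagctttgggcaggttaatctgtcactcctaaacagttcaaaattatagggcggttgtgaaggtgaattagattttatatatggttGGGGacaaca
INTS6-AS1 (chr13:51452348-51452497, plus strand): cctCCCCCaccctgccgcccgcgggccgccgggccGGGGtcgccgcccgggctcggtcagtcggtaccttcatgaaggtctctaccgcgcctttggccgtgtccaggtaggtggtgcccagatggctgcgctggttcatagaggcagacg
ROCK1P1 (chr18:108254-108403, plus strand): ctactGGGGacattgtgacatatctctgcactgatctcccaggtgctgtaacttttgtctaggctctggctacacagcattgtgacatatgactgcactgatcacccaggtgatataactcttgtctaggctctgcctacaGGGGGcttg
ENSG00000290039 (chr17:58658765-58658914, minus strand): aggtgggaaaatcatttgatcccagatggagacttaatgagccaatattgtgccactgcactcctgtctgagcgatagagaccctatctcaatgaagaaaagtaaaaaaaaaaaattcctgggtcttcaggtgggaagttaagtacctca
ENSG00000290122 (chr1:16905500-16905649, plus strand): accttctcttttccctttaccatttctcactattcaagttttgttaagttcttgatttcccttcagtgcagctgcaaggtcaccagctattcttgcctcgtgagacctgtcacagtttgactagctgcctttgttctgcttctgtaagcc
ENSG00000273338 (chr1:78003834-78003983, minus strand): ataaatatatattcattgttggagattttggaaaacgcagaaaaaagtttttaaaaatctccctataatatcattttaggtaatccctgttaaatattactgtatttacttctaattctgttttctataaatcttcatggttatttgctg
The INTS6-AS1 window had a GC content of 71.3% and 16 CpG dinucleotides, as in a CpG island. The other 6 windows had between 24.7% and 49.3% GC and at most 2 CpG each. The windows of ENSG00000290039, ENSG00000290122 and ENSG00000273338 held no marked run. The peaks called most often at lncRNA starts were therefore not of one sequence type.

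LINC01767 itself carried peaks in only one list, CRLM1-OE replicate 2. Its peak at chr1:56414788-56415265 scored 287 and ranked 21 of 3163. A second peak at chr1:56415698-56416053 scored 237 and ranked 28. Over a LINC01767 transcript of 4 exons in GENCODE, the first peak covered 233 of the 233 bases of exon 1 and 18 of the 95 bases of exon 2, and the second covered 185 of the 185 bases of exon 4. The 77 bases of exon 3 lay in neither. These cells carried CRLM1 sequence on a construct as well as at the locus, and the part of the construct in these peaks was not tested. CRLM1-OE replicate 1, whose cells carried the same construct, and the 4 control lists had no peak at this gene's start.

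The main question was whether hnRNPK was called at more lncRNA starts with CRLM1-OE. Peaks at lncRNA starts numbered 99 and 75 with CRLM1-OE, 25 and 33 with the empty construct, and 45 and 44 with the antisense construct. The lowest CRLM1-OE number exceeded the highest control number, and both antisense lists lay above both empty lists. The mean number was 87 ± 17.0 (SD, n = 2) with CRLM1-OE, 29 ± 5.66 (SD, n = 2) in the empty control and 44.5 ± 0.707 (SD, n = 2) in the antisense control. The CRLM1-OE number was 3 times that of the empty control, 1.96 times that of the antisense control and 2.37 times that of the 4 control lists together. The exact two-sided permutation test of the library labels gave p = 0.333 for each comparison of 2 lists with 2, the smallest it allows, and p = 0.0667 for 2 lists against 4, also the smallest it allows, so no group comparison here could pass 0.05.

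List length differed as well, with most peaks in CRLM1-OE. A share of the list adjusts for the number of peaks, but not for read depth or for the portion of weak peaks in a list. Peaks at lncRNA starts were 2.28% of CRLM1-OE replicate 1 (95% Wilson interval 1.88 to 2.77%) and 2.37% of replicate 2 (1.90 to 2.96%). They were 1.54% (1.05 to 2.27%) and 1.27% (0.903 to 1.77%) of the empty lists, and 1.99% (1.49 to 2.65%) and 1.98% (1.48 to 2.65%) of the antisense lists. The 3 groups did not overlap in share, but the intervals of the CRLM1-OE and antisense lists did, and they cover counting error only. CRLM1-OE exceeded the empty control by 0.921 percentage points and the antisense control by 0.342, and the antisense control exceeded the empty control by 0.579, each at p = 0.333 in the exact permutation test. Against the 4 control lists it was 0.632 points, with p = 0.133 in the exact permutation test.

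**Figure D1:**
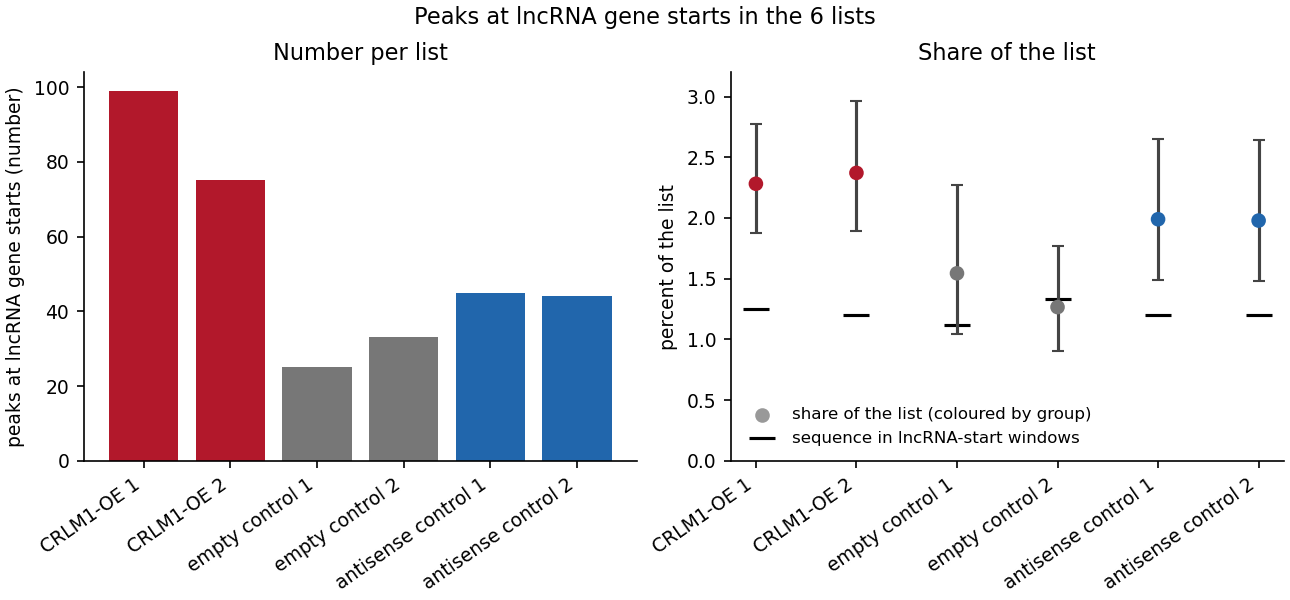
Number of peaks at lncRNA gene starts in each list (left) and their share of the list in percent with 95% Wilson intervals (right), coloured by group. The black dashes give the share of sequence in lncRNA-start windows on the same chromosomes, and every list except empty control 2 lies above its dash.

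Windows around lncRNA starts made up 1.09% of the genome. Weighted by the chromosomes on which each list's peaks lay, the share of peaks was 1.82 and 1.97 times the share of sequence with CRLM1-OE, 1.66 and 1.65 times with the antisense construct, and 1.38 and 0.951 times with the empty construct. Protein-coding starts were reached far more often, at 4.22 and 8.11 times in CRLM1-OE, 3.97 and 4.60 times in the antisense control, and 1.06 and 2.34 times in the empty control. The lncRNA share was thus the lower of these ratios in 5 of the 6 lists.

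Among peaks at either kind of gene start, 27.1% and 17.0% lay at a lncRNA start in CRLM1-OE, 54.3% and 26.2% in the empty control, and 26.2% and 23.3% in the antisense control. The CRLM1-OE mean differed by −18.2 points from the empty mean (p = 0.667, exact permutation test) and by −2.66 points from the antisense mean (p = 1, exact permutation test), and these groups overlapped. The highest value, in empty control replicate 1, rests on 25 peaks at lncRNA starts and 21 at protein-coding starts.

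The group difference in share changed with the way peaks were placed and filtered. Of the 321 peaks, 65 (20.2%) lay within 1 kb of the start of a protein-coding transcript that was not the 5′ end of its gene record, against 8.22% of the 16194 lncRNA starts open to the rule. CRLM1-OE replicate 2 had 23 such peaks of 75 (30.7%), the highest share. CRLM1-OE replicate 1 had 19 of 99 (19.2%), which lay within the control shares of 20%, 15.2%, 15.6% and 13.6%. When every protein-coding transcript start was excluded, CRLM1-OE kept shares of 1.84% and 1.64%, the antisense control 1.68% and 1.71% and the empty control 1.24% and 1.07%. The difference between CRLM1-OE and the antisense control was then 0.0496 points (p = 1, exact permutation test) and the lists overlapped, while CRLM1-OE exceeded the empty control by 0.589 points (p = 0.333, exact permutation test) with no overlap. The difference from the antisense control was also smaller, with overlapping lists, among peaks above the median score (0.138 points) and when any base of the peak could lie in the window (0.124 points), each at p = 1 in the exact permutation test. With a window of 500 bp it was 0.348 points (p = 0.667, exact permutation test), and the lists overlapped as well. CRLM1-OE then had 1.152% and 2.09%, and the antisense control 1.149% and 1.39%. With a window of 2 kb the difference was 0.448 points (p = 0.333, exact permutation test), with 3.71% and 3.38% against 3.05% and 3.15%. With every transcript start of lncRNA and protein-coding genes used, it was 0.219 points (p = 0.333, exact permutation test). The lists did not overlap in either setting. Among the 1000 highest-scoring peaks of each list, the CRLM1-OE lists held 25 and 36 at lncRNA starts, the empty lists 16 and 14 and the antisense lists 26 and 26, and the ratio of CRLM1-OE to the 4 control lists was 1.49 in place of 2.37.

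Peaks were spread over the whole window around the lncRNA start. Of the 321, 174 (54.2%) had their midpoint downstream of the start, and 93 lay within 250 bp of it. The 250 bp just downstream of the start held 54 peaks and the bin farthest upstream held 42. At the edge of the rule, 36 peaks lay 900 to 1000 bp from the start with a median score of 60.5, and 35 lay just outside, at 1000 to 1100 bp, with a median of 59.8. Of the 321 peaks, 138 (43.0%) were at lncRNAs that start inside a protein-coding gene on its opposite strand, against 28.8% of the eligible lncRNA starts, and 51 (15.9%) had a protein-coding start within 5 kb, against 10.2%.

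**Figure D2:**
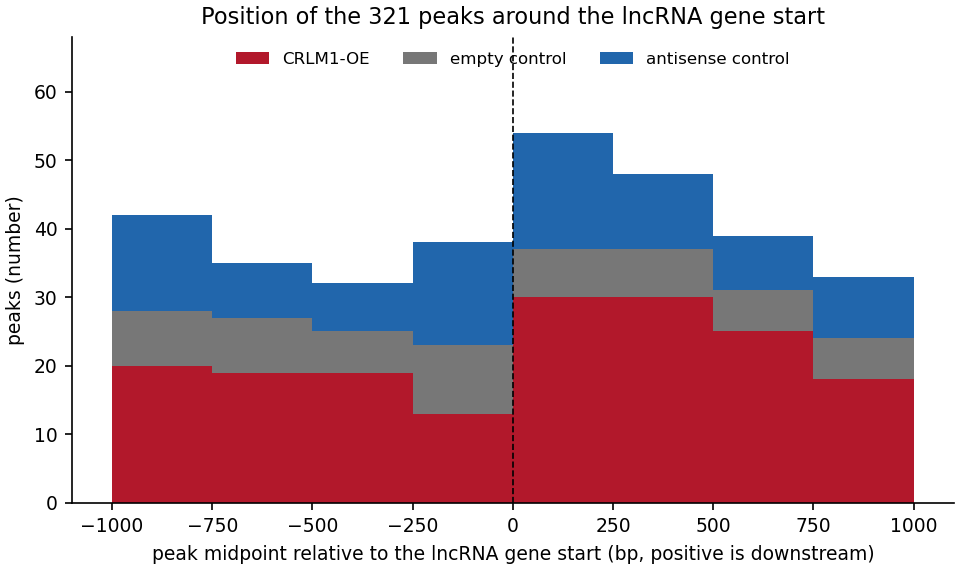
Number of peaks by the distance in bp of the peak midpoint from the lncRNA gene start, in bins of 250 bp, stacked by group. All bins are filled, from 32 to 54 peaks, with the highest just downstream of the start.

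In sequence, these peaks stood between those at protein-coding starts and those at no gene start. The median GC content was 53.3% and 58.0% in the CRLM1-OE lists, 42.2% and 51.6% in the empty lists and 52.8% and 47.8% in the antisense lists. In every list it was below that of protein-coding starts (mean difference −13.7 ± 4.37 points, SD over 6 lists) and above that of peaks at no gene start (10.3 ± 4.39 points). Both differences had an adjusted p of 0.0417 in the exact sign-flip permutation test over the 6 lists, with Benjamini-Hochberg adjustment over 12 tests. The observed to expected ratio of CpG dinucleotides averaged 0.338 at lncRNA starts, against 0.734 at protein-coding starts and 0.193 away from gene starts. Each difference had an adjusted p of 0.0417 in that exact test. GC content and CpG ratio were not computed for gene starts, or for other sequence, without a peak. Whether this order differs from that of the same kinds of sequence without hnRNPK peaks was therefore not tested.

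The peaks at lncRNA starts were narrower than those at protein-coding starts, with a mean difference over lists of −140 ± 74.6 bp (SD), and 92.9 ± 112 bp wider than those at no gene start. Both had an adjusted p of 0.0417 in the exact sign-flip test. Peak score, taken as a percentile within the list, averaged 61.4 at lncRNA starts and 62.8 at protein-coding starts (adjusted p = 0.719, exact sign-flip test). Peaks at no gene start averaged 48.6, lower in 5 of 6 lists, but this did not pass (adjusted p = 0.0682, exact sign-flip test). CRLM1-OE replicate 1, where the lncRNA-start peaks were at the 47.8th percentile, was the exception.

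Because hnRNPK prefers C-rich strands, the central 300 bp of each peak was searched for CCCTCCC and for CCCC on both strands, and these motifs can overlap. CCCTCCC was present in 26.3% and 38.7% of lncRNA-start peaks in CRLM1-OE, 8% and 15.2% in the empty control and 24.4% and 13.6% in the antisense control. Its share exceeded that of peaks at no gene start in all 6 lists, by 10.9 ± 9.61 points (adjusted p = 0.0417, exact sign-flip test), and differed by −18.0 ± 12.04 points from that of protein-coding starts, lower in 5 of 6 lists (adjusted p = 0.0682, exact sign-flip test). In CRLM1-OE replicate 2 the lncRNA-start share was 2.60 points higher than the protein-coding one. CCCC occurred in 85.5% of lncRNA-start peaks on average, which differed by −11.5 points from protein-coding starts and by 19.3 points from peaks at no gene start, both at an adjusted p of 0.0417 in the exact test. Over all lists, 79 of the 321 peaks (24.6%) held CCCTCCC. Among RefSeq promoters of 300 bases, 26.6% of all 35116 and 22.4% of the 4156 with the symbol of a GENCODE lncRNA did, so the share was near that of promoters as such.

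**Figure D3:**
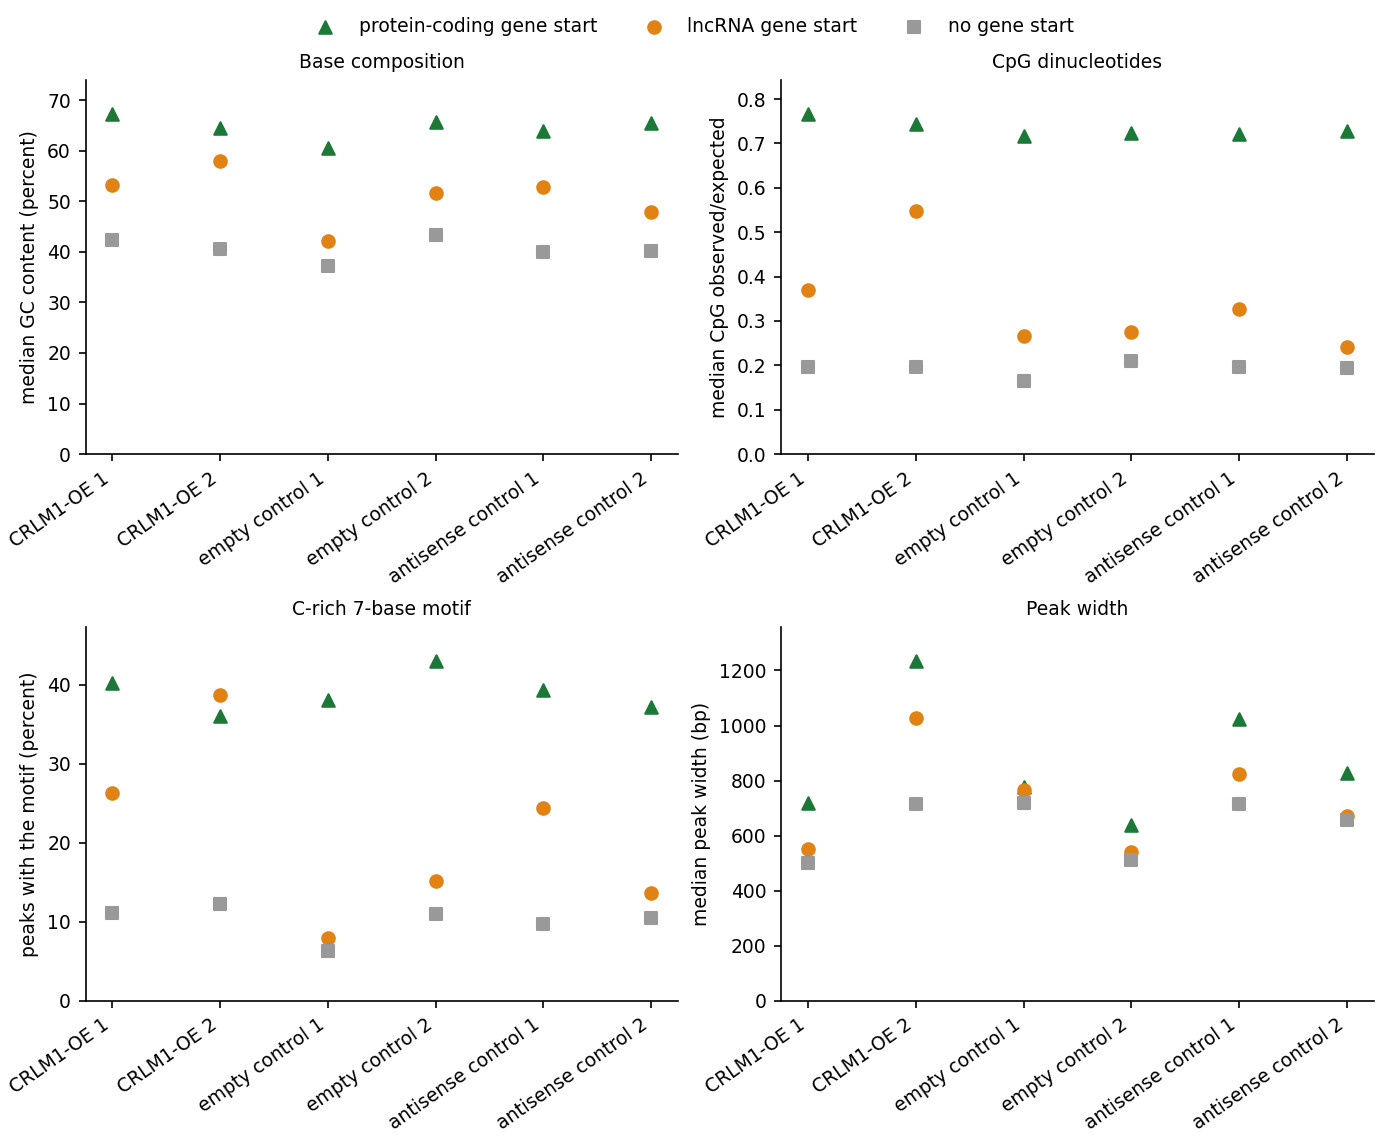
Median GC content (percent), median ratio of observed to expected CpG, share of peaks with the C-rich 7-base motif in the central 300 bp (percent) and median width (bp) in each list, for peaks at lncRNA gene starts (circles), protein-coding starts (triangles) and no gene start (squares). The circles lie between the other symbols except for the motif in CRLM1-OE replicate 2.

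The peaks at lncRNA starts were next divided by composition, a division made after the values were seen. A peak was counted as CpG-rich when its GC content was over 50% and its CpG ratio over 0.6, as in CpG islands, the mostly unmethylated stretches that mark many promoters. CpG-rich peaks were 24 of 99 and 34 of 75 with CRLM1-OE, 1 of 25 and 5 of 33 in the empty control, and 12 of 45 and 9 of 44 in the antisense control. As a share of the list they made up, in the same order, 0.553% and 1.07%, 0.0618% and 0.192%, and 0.531% and 0.405%. Both CRLM1-OE values were above all 4 control values, by 0.517 points on average (p = 0.0667, exact permutation test, the smallest it allows). In CRLM1-OE replicate 1 the margin over antisense control replicate 1 was small, and leaving out CRLM1-OE replicate 2 lowered the difference from the antisense control from 0.346 to 0.0855 points and that from the 4 control lists to 0.256. With a GC content over 55% and a CpG ratio over 0.65 the difference from the 4 control lists was 0.372 points (p = 0.2, exact permutation test) and the CRLM1-OE and antisense lists overlapped. With the central 300 bp it was 0.459 points (p = 0.133, exact permutation test).

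The peaks that were not CpG-rich took 1.73% and 1.30% of the CRLM1-OE lists, 1.48% and 1.07% of the empty lists and 1.46% and 1.57% of the antisense lists. These shares overlapped in every comparison, with a difference of 0.115 ± 0.377 points (SDs of both groups combined) between CRLM1-OE and the 4 control lists (p = 0.667, exact permutation test). With 2 lists in a group a difference of this size was not detectable. As a share of the lncRNA-start peaks and not of the list, CpG-rich peaks were 24.2% and 45.3% with CRLM1-OE. In the control lists they were 4% to 26.7%, so on this measure the lists overlapped. The same within-class share was higher in both CRLM1-OE lists at protein-coding starts and at no gene start. At protein-coding starts 74.8% and 79.0% of the CRLM1-OE peaks were CpG-rich against 62.4% to 72.4% in the control lists, and at no gene start 2.46% and 3.98% against 0.516% to 2.25%. Of the 85 CpG-rich lncRNA-start peaks 45.9% held CCCTCCC, against 16.9% of the other 236. The CpG-rich class was defined by GC content, and no motif rate matched for composition was computed, so this difference may be one of composition alone.

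**Figure D4:**
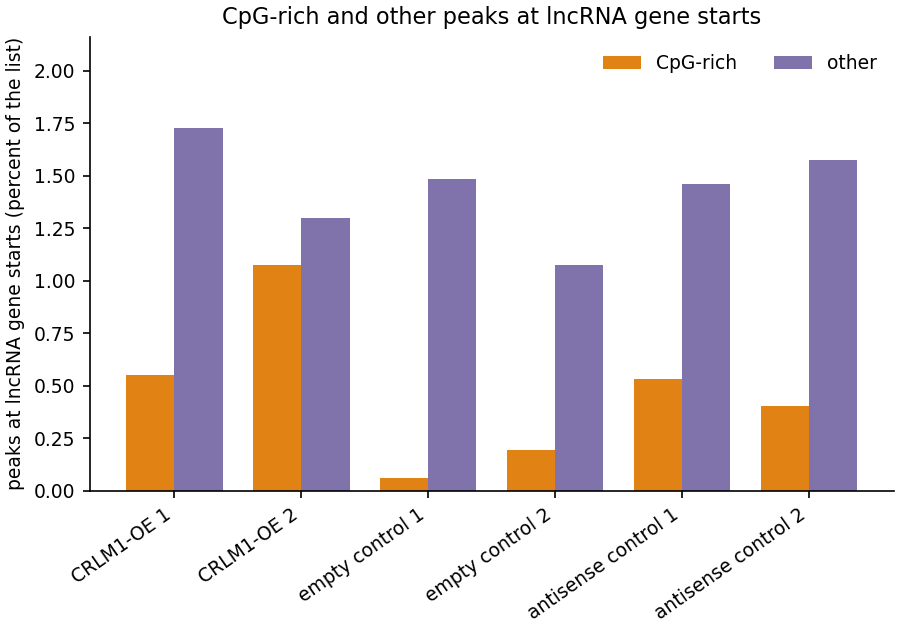
CpG-rich (orange) and other (purple) peaks at lncRNA gene starts as a percent of all peaks of the list. The orange bars are highest in CRLM1-OE replicate 2 at 1.07% and lowest in empty control replicate 1 at 0.0618%, while the purple bars span 1.07% to 1.73% with overlapping groups.

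Few lncRNA starts were called more than once. At least one of the 321 peaks lay at 303 of 18866 annotated lncRNA starts, a background of 1.61%. Only 16194 of the 18866 lay more than 1 kb from a protein-coding start, and the rest were partly closed to the rule. Of the 303 starts, 284 were called in 1 list, 13 in 2 lists, 2 in 3 lists, 3 in 4 lists and 1 in 5 lists. After overlapping peaks were merged, the 321 peaks fell in 292 regions, of which 26 (8.90%) were called in 2 or more lists, against 2.92% of all 15464 merged regions. Peaks at protein-coding starts recurred more often still in 5 of 6 lists. In CRLM1-OE replicate 1, 17.2% of lncRNA-start peaks and 23.7% of protein-coding-start peaks overlapped a peak of another list, and in CRLM1-OE replicate 2, the exception, 24.0% and 19.9% did. Both replicates of CRLM1-OE and no control shared 9 regions (3.08%), against 0.53% of all regions. A merged region was counted at a lncRNA start when any 1 of its peaks met the rule. Wide regions and those with peaks of more lists were thus counted more easily, which can raise both the 8.90% and the 3.08%. Among the 9, the regions at ENSG00000262413 (8797 bp wide), ENSG00000268375, EPHA2-AS1 and ENSG00000245025 met the rule in 1 list only. Only 1 region was called in both antisense lists alone and 0 in both empty lists alone, but those lists were shorter. By gene start, 11 starts carried peaks of CRLM1-OE replicates 1 and 2, 1 of both empty replicates and 2 of both antisense replicates. Leaving out either CRLM1-OE list reduced the regions called in 2 or more lists from 26 to 13 (without replicate 1) or 12 (without replicate 2).

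ROCK1P1, a pseudogene of the kinase gene ROCK1 that is annotated as a lncRNA, was called in 5 lists, the most of any lncRNA start. Its peak upstream of the start scored 182 in CRLM1-OE replicate 1, 51.8 and 405 in the empty lists and 67.6 and 67.4 in the antisense lists, and CRLM1-OE replicate 2 had none. The empty lists thus held both its lowest and its highest score. Its peaks were close to 49% GC and almost free of CpG, with a ratio between 0.0521 and 0.105.

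ENSG00000273338, which lies in the DNAJB4 and GIPC2 genes on their opposite strand, scored 92.2 and 133 in the CRLM1-OE lists, 74.4 in empty control replicate 1 and 113 in antisense control replicate 1. It was the most A- and T-rich of the recurrent starts, at 30.9% to 31.8% GC. ENSG00000290039, inside TEX14, scored 84.0 and 216 in CRLM1-OE, 59.3 in empty control replicate 1 and 58.4 in antisense control replicate 2. ENSG00000290122, a short lncRNA in CROCC, scored 271 and 104 in CRLM1-OE and 66.2 in antisense control replicate 2, at the same peaks as its neighbour ENSG00000272426. For both of these starts each CRLM1-OE score was above every control score, but scores were not scaled between lists and were not tested.

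INTS6-AS1 is antisense to INTS6, which encodes a subunit of the Integrator complex that processes small nuclear RNAs. It scored 217 in CRLM1-OE replicate 1, 68.1 and 59.5 for 2 peaks in CRLM1-OE replicate 2, 59.4 in empty control replicate 2 and 51.2 in antisense control replicate 1. Its 5 peaks were CpG-rich, at 58.0% to 71.8% GC, and their midpoints lay 2 to 90.5 bp from the start of a protein-coding transcript, so a lncRNA promoter and a protein-coding promoter cannot be told apart there. Of the 18 separate starts called in 2 or more lists, 6 had a peak within 1 kb of a protein-coding transcript start, INTS6-AS1 among them, and 9 had a CpG-rich peak.

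**Figure D5:**
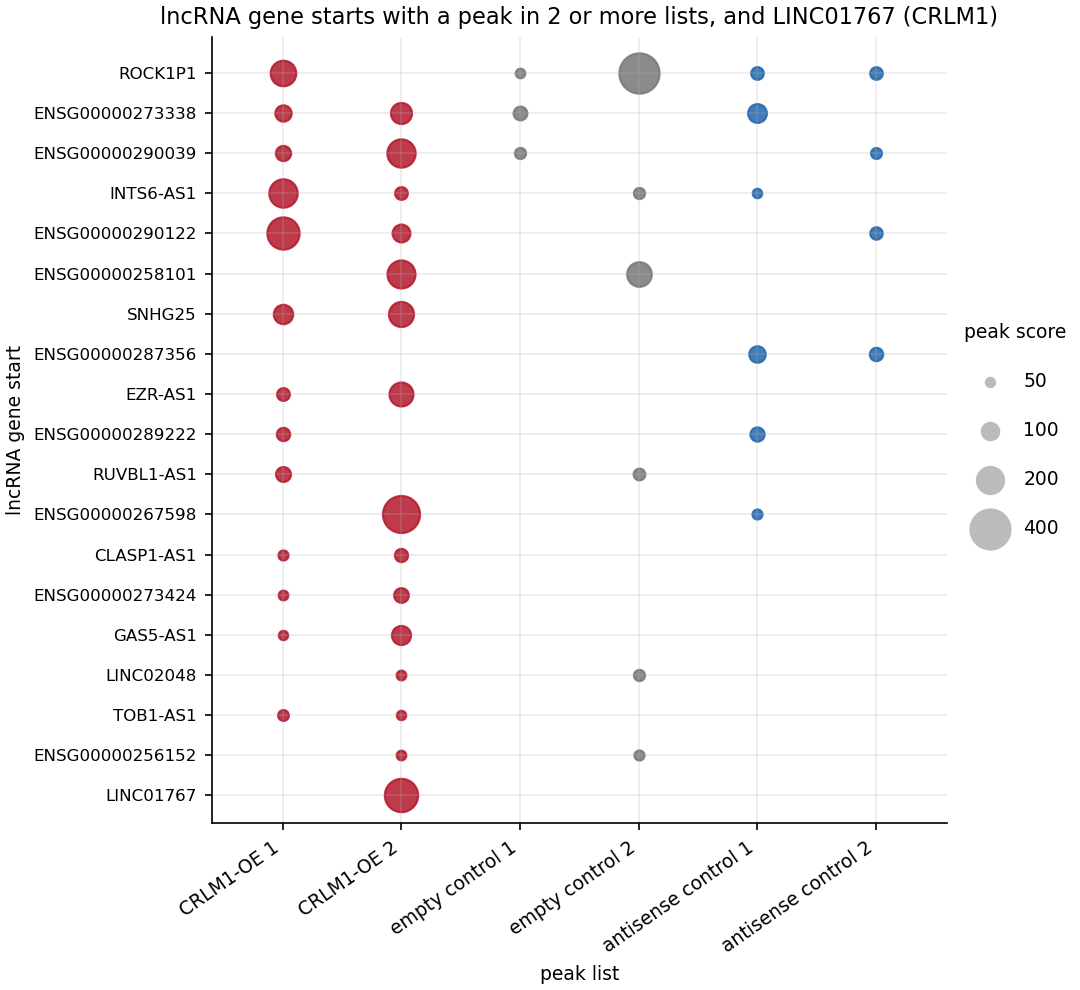
Scores of the peaks at the 18 separate lncRNA gene starts called in 2 or more lists, and at LINC01767. Each dot is the highest-scoring peak of a list at that start and its area grows with the score, which is not scaled between lists; ROCK1P1 was called in 5 lists and LINC01767 in CRLM1-OE replicate 2 alone.

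Peaks of both CRLM1-OE replicates and of no control lay at 6 lncRNA starts (0.0318% of all 18866). SNHG25, a host of small nucleolar RNAs, scored 117 and 176. EZR-AS1, antisense to the gene of the membrane-cytoskeleton linker ezrin, scored 68.3 and 163. GAS5-AS1, antisense to the growth-arrest lncRNA GAS5, scored 50.6 and 115. The first of these GAS5-AS1 scores ranked only 4071 of 4339, at the calling floor. CLASP1-AS1, antisense to the gene of a microtubule plus-end protein, scored 53.9 and 70.7, and ENSG00000273424 scored 52.4 and 80.7. TOB1-AS1, antisense to the antiproliferative gene TOB1, scored 57.6 and 50.8. At EZR-AS1 a peak of antisense control replicate 2 overlapped the same merged region without meeting the rule, so that locus was not particular to the CRLM1-OE lists.

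Of the other starts in 2 lists, all but ENSG00000287356 had peaks from different groups. ENSG00000258101, whose peaks lay 109 and 268 bp from a transcript start of a protein-coding gene in the TUBA1C tubulin locus, scored 212 in CRLM1-OE replicate 2 and 171 in empty control replicate 2. ENSG00000267598, at the immediate-early gene IER2, scored 348 in CRLM1-OE replicate 2, rank 9 of the list, and 53.6 in antisense control replicate 1. Peaks of CRLM1-OE replicate 1 and antisense control replicate 2 fell in the same merged region without meeting the rule. ENSG00000287356 was the single start called in the 2 antisense lists alone, at 93.5 and 72.2. ENSG00000289222 scored 71.8 in CRLM1-OE replicate 1 and 77.3 in antisense control replicate 1, and RUVBL1-AS1 scored 82.2 in CRLM1-OE replicate 1 and 62.4 in empty control replicate 2. LINC02048 and ENSG00000256152 each had a peak in CRLM1-OE replicate 2 and empty control replicate 2, with scores from 52.1 to 59.3. A peak of antisense control replicate 2 fell in the merged region at LINC02048 without meeting the rule.

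Of the 12 peaks that were the 2 highest-scoring lncRNA-start peaks of their list, 7 were at starts called in that list alone. In CRLM1-OE replicate 1, MGC16275 scored 232, second to ENSG00000290122. Its gene lies head to head with TTYH2, and the peak covered the TTYH2 start as well. Peaks of 3 other lists, CRLM1-OE replicate 2, empty control replicate 2 and antisense control replicate 1, fell in the same merged region without meeting the rule. In empty control replicate 1 the top scores were 85.8 at ENSG00000274093 in NFAT5 and 81.9 at ENSG00000263041. In antisense control replicate 1, FUT8-AS1 scored 101, and in antisense control replicate 2, ENSG00000284669 and ENSG00000269915 scored 93.9 and 91.4.

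By the form of the gene name, antisense lncRNAs carried a peak most often among the large classes, at 45 of 1841 starts (2.44%). LINC genes did at 39 of 2265 (1.72%), genes with no symbol at 194 of 13109 (1.48%) and divergent transcripts at 7 of 589 (1.19%), against the background of 1.61%. Divergent transcripts start next to protein-coding promoters, which the rule removed. The background and every class also count starts within 1 kb of a protein-coding start, and the classes were not adjusted for this. Hosts of small RNAs carried a peak at 6 of 114 starts (5.26%), and 5 of these 6 were called in CRLM1-OE lists alone, against 157 of all 303 starts with a peak. They were SNHG25, SNHG7, MIR200CHG, MIR23AHG and MIR378D2HG, and MIR142HG was called in antisense control replicate 1. These names were read off after the values were seen, and no test was made.

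Of 9 annotated lncRNAs from a list of p53-responsive genes, 0 carried a peak in any list, and 3 of the 9 lay near a protein-coding start, where the rule leaves peaks out. Of 13 small RNA hosts named for growth control, 1 did, SNHG7, with a score of 78.7 in CRLM1-OE replicate 2, and 4 of the 13 were near a protein-coding start. With lists this short and 1.61% of all lncRNA starts carrying a peak, these counts do not set the lists apart. Among lncRNAs linked to colorectal cancer, peaks lay at LINC01767, described above, and at LINC00460, with a score of 50.2 in CRLM1-OE replicate 1, near the floor of 50.

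Small RNA genes lay directly under some of these peaks. A gene of a small nuclear RNA, small nucleolar RNA, small Cajal body RNA, microRNA or miscellaneous small RNA overlapped 3 of 99 and 5 of 75 lncRNA-start peaks in the CRLM1-OE lists, 0 of 25 and 1 of 33 in the empty lists, and 0 of 45 and 0 of 44 in the antisense lists. Over the lncRNA-start peaks, that is 4.60% with CRLM1-OE and 0.680% in the controls. At protein-coding starts the shares were 2.69% and 1.81%, and at no gene start they were 0.0457% and 0%. This overlap was looked for after the values were seen, and the numbers are small.

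The CRLM1-OE peaks of this kind covered RNU4ATAC, a small nuclear RNA of the minor spliceosome, at CLASP1-AS1 in both lists. At SNHG25, also in both lists, they covered SNORD104 and SNORA50C, which guide the modification of other RNAs. In CRLM1-OE replicate 2 they reached RNU7-1, the small nuclear RNA of histone mRNA 3′ end processing, at ENSG00000272173, RNVU1-6, a variant of U1, at ENSG00000287190, and SNORD49A and SNORD65 at ENSG00000266651. In CRLM1-OE replicate 1 a peak with a score of 88.2 covered MIR200C and MIR141, microRNAs of the epithelial state, at MIR200CHG. The control peak was that of RUVBL1-AS1, which touched RNU2-37P, a pseudogene. Whether these peaks mark the lncRNA start or the small RNA gene cannot be told apart at this peak width.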

How the data were processed

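hnRNPK ChIP-seq in HCT116 cells gave 6 immunoprecipitated and 6 input libraries in 3 groups. The authors used cutadapt for trimming, Bowtie2 for alignment to GRCh38 and, per their methods, MACS2 to call the peaks of each library against its own input. The deposited score of a peak is the caller's value. Its floor of 50 is that of an older caller scale and not of the cutoff the methods give as a q-value, so the settings behind the lists are not certain. Scores ranked peaks within a list only. Read depth is unknown.

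Of 16768 deposited peaks, 16214 on chromosomes 1 to 22, X and Y were used, and the number of columns left unused was 0. Gene records came from GENCODE release 44 and sequence from hg38, read with pysam 0.24.0. Python 3.11.15, pandas 2.3.3, scipy 1.17.1 and statsmodels 0.14.6 were used, and the code was tested on simulated lists. Groups were compared over libraries with two-sided exact permutation tests, 12 planned and 8 added for CpG-rich peaks, whose p-values are unadjusted because none could pass 0.05. Features were compared within lists with an exact sign-flip permutation test over the 6 lists, Benjamini-Hochberg adjusted over 12 tests. Peaks that shared 1 bp or more became 1 merged region. The labels call the lists replicates, and nothing used here says whether separate cultures were sequenced. Alternatives were other windows (500 bp, 2 kb), score filters, transcript starts, peak edges, lists of like width, each list left out and the replicate numbers as a block.

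The members and gene lists were chosen with earlier results of these data known. The named genes were LINC01767, the 20 lncRNA starts called in the most lists (ties by mean score percentile), the 2 highest-scoring lncRNA-start peaks of each list and the listed genes with a peak. The count over the colorectal cancer list is not reported here.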

Additional observations from a re-analysis of the deposited data

How the results depend on the processing

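Of the alternatives that did not leave out a list, 177 stayed the same, 12 lost a call and 4 gained one. A further 14 moved a count by over 1.5 times and 6 turned the direction. Same meant an equal direction for group comparisons, which could pass no threshold, and a change of at most 1.5 times for counts. For features it meant an equal direction and side of the threshold. The replicate-block settings repeat the main difference by construction, so they could not turn it. With a window of 500 bp, the differences from protein-coding starts were −12.8 points in GC (adjusted p = 0.0625 in the exact sign-flip test), −0.351 in CpG ratio (0.0625), −136 bp in width (0.0833) and −10.9 points for CCCC (0.0833), and from peaks at no gene start 12.7 points, 0.224 (both 0.0625), 128 bp (0.0833), 9.45 points for CCCTCCC (0.1125) and 21.3 points for CCCC (0.0625). Among peaks above the median score, the differences from no gene start in CpG ratio (0.144, adjusted p = 0.102) and CCCTCCC (11.98 points, 0.075) did not pass in the exact test, whereas the score percentile (6.38) and CCCTCCC against protein-coding starts (−19.9 points) passed. With 2 kb, width against no gene start (71.2 bp, 0.0625) did not pass, and the score percentile (8.48) and CCCTCCC against protein-coding starts (−16.8 points) did. The cause was not tested.

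Leaving out any list left 5, which allow no p under 0.0625 in the exact sign-flip test, so every such feature call was lost. The differences then ranged, against protein-coding starts and then no gene start, from −15.1 to −12.7 and 8.88 to 11.3 points in GC, −0.436 to −0.378 and 0.103 to 0.164 in CpG ratio, −166 to −126 and 49.1 to 109 bp in width, −12.4 to −10.1 and 18.0 to 20.6 points for CCCC, −22.1 to −15.6 and 7.79 to 12.7 points for CCCTCCC, and −6.00 to 2.197 and 10.8 to 15.5 in score percentile. Regions called in 2 or more lists ranged from 12 to 26.

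The lncRNA share of gene-start peaks was 0.933 points higher in CRLM1-OE in the 2 narrow lists, against the empty control and so against all controls. With lists left out it ranged from −32.3 to −4.13 points against the empty control, from −15.5 to −3.15 against the 4 controls and from −7.71 to 2.40 against the antisense control. For peaks that were not CpG-rich, the difference turned to −0.186 points against the empty control and −0.209 against the 4 controls in the wide lists, and to 0.128 (GC over 55%, CpG ratio over 0.65) and 0.0526 (central 300 bp) against the antisense control. It ranged from −0.220 to 0.212 and, against the 4 controls, from −0.101 to 0.331 with lists left out. These settings were chosen after seeing the data.

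Regions in 2 or more lists were 17 among the 1000 highest-scoring peaks. Regions in both CRLM1-OE lists and no control list were 4 with the 1000 highest-scoring peaks, with peaks above the median score and with 50% reciprocal overlap. Starts called in both CRLM1-OE lists fell from 11 to 7, 7, 5 and 6 (1000 highest, above the median, 500 bp, all protein-coding transcripts). In both empty lists they were 0, 0 and 0 under the first 3 of these settings and 6 with 2 kb, and in both antisense lists 1 with 500 bp and 6 with 2 kb. Without the LINC01767 peaks, also chosen later, the CRLM1-OE number was 2.34 times that of the 4 control lists.

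With the replicate number as a block, the number ratio of CRLM1-OE to the empty control was 3 (p = 0.5, exact permutation test, the smallest possible) and that to the 4 control lists 2.37 (p = 0.111, exact). The lists share only a number, and no source pairs them. The share of repeat-masked sequence was not run, because the genome copy used here marks no repeats. Unknown read depth limits every comparison of numbers.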
